A study of Sus scrofa with 8 samples.

Results

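Interferon-stimulated genes, the sensors of viral nucleic acid that set off interferon production, the IRF and STAT factors between them, and the type I interferon receptor were followed in left ventricular tissue of gene-edited long QT pigs. Of 40 listed symbols 36 had a row in the deposited table of 14718 genes: 24 interferon-stimulated effectors and regulators, 5 sensors and their signalling partners, 6 IRF and STAT factors, and the receptor gene IFNAR1. DDX58 is the older symbol of RIGI, which is counted under its current name, and OASL, IFNAR2 and MAVS were not analysed here. The members were listed by known role, with earlier results of these data known. All 36 had at least 10 normalized counts in all 4 mutant libraries, so none passed the filter on low values through a higher level in WT alone.

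Left ventricles of 4 mutant pigs were compared with those of 4 wild-type (WT) pigs, 1 poly(A)-selected RNA library per pig. The genotype label of mutant replicates 1 to 3 names a KCNH2 mutation and that of replicate 4 a KCNH3 mutation, while the series design names only KCNH2, the gene of the rapid delayed rectifier potassium channel. The exact allele, age, sex, litter and tissue collection of the pigs were not part of the labels, and no treatment is named in either group. A normalized count is a gene's read count divided by a size factor of its library, and a log2 difference is the mean log2(normalized count + 1) of mutant libraries minus that of WT libraries.

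Cytosolic RNA sensors such as RIG-I and MDA5 signal through the mitochondrial adaptor MAVS to IRF3 and IRF7, which switch on the genes of type I interferons. Secreted interferon binds IFNAR1 and IFNAR2 on the same and on neighbouring cells, and a complex that contains STAT2 and IRF9 then turns on interferon-stimulated genes, among them more of the sensors and IRF7 itself. In the heart, myocytes, fibroblasts, endothelial cells and macrophages can all mount this response, which is best known from viral myocarditis and from infarction.

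The libraries were not alike. Recovered depth was 15.9 to 22.4 M reads (M is the SI prefix mega) in mutant and 16.8 to 21.6 M reads in WT libraries, but the 13 mitochondrially encoded genes took 15.9% to 27.5% of the reads in mutant libraries and 33.5%, 31.7%, 87.9% and 65.2% in WT replicates 1 to 4. WT replicate 3 was left with 2.53 M reads of nuclear genes, and 1 read there was worth 4.84 normalized counts, against 0.611 to 1.21 in the other libraries. Mutant replicates 3 and 4 were the closest pair, with a mean chi-square per nuclear gene of 11.6 for a difference in reads, where sampling noise gives about 1. The other mutant pairs gave 46.6 to 202 and the WT pairs 109 to 251. KCNH2 had 798 to 1839 normalized counts in mutant and 148 to 1909 in WT libraries, which does not check the edit. The ventricular myocyte markers, 9 in number, had reads in every library. Their summed level was 727784 to 952620 normalized counts in mutant and 453454 to 696281 in WT libraries, so the groups did not overlap. The results are therefore also given without WT replicate 3, without WT replicates 3 and 4, and without mutant replicate 4.

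Most interferon members were lower in mutant than in WT ventricles, and a few of them by a wide margin. Of the 36 members 28 had a negative and 8 a positive log2 difference, with a median of -0.74, whereas over the 11660 genes tested 43.1% were lower and the median was 0.12. DESeq2 and edgeR on the recovered reads of all 8 libraries each gave 34 members lower and 2 higher, with a median of -1.01. Their medians over all genes tested were -0.03 and -0.01. The groups did not overlap, with all mutant libraries lower, for 7 members, ISG15, GBP2, XAF1, CMPK2, MOV10, IRF7 and STAT2 (19.4% of members, against 5.22% of all genes tested), and with all mutant libraries higher for none (6.17% of all genes tested). No member passed limma with Benjamini-Hochberg adjustment over all genes (smallest adjusted p = 0.142), and 0 of 11660 genes passed (0.0%). At an unadjusted p under 0.05, 12 members were lower and 0 higher in limma, against 6.8% and 7.06% of all genes tested. The quasi-likelihood test of edgeR on recovered reads also called none, with 15 members lower and 0 higher at an unadjusted p under 0.05 (8.73% and 5.83% of its genes). The authors' deposited table calls 8 members lower, 22.2% of them, and none higher, where it calls 3.23% of 12763 genes lower and 1.32% higher. These 8 are ISG15, IRF7, MOV10, USP18, GBP2, XAF1, GBP1 and IRF1. In bulk tissue, fewer cells of a type and less RNA per cell cannot be told apart.

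WT replicate 3 sat apart from the other WT libraries in many members. It had no read for 6 members (16.7%, against 11.3% of all genes tested), was the lowest WT library for 28 of the 36 members (77.8%, against 35.9% of all genes tested) and the lowest of all 8 libraries for 16 (44.4%, against 30.9% of all genes tested). Without it, 34 members were lower and only SAMHD1 and IFNAR1 higher, with a median of -1.38 against 0.03 for all genes tested. All mutant libraries lay below WT replicates 1, 2 and 4 for 22 members, against 8.05% of all genes tested. The median was -1.34 without WT replicates 3 and 4, with 35 members lower, and -0.67 without mutant replicate 4, with 26 lower. For 31 members the SD of the log2 values was larger in WT than in mutant libraries (86.1%, against 84.3% of all genes tested).

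DESeq2 on the recovered reads called the same 8 members lower as the authors' deposited table, against 3.24% of its genes lower and 1.32% higher. It called 20 members without WT replicate 3 (3.03% of its genes), 18 without WT replicates 3 and 4 (3.09%), 5 without WT replicate 1 (5.19%), 4 without WT replicate 4 (2.3%) and 9 without mutant replicate 1 (1.97%), all of them lower. It called 3 without mutant replicate 2 (2.23%), without mutant replicate 3 (1.01%) or without mutant replicate 4 (0.743%). Without WT replicate 2 it called 6 members lower (3.7%), and IFNAR1 higher (1.81%). ISG15, MOV10 and IRF7 were the 3 members that it called whichever single library was left out. GBP2, USP18, XAF1 and GBP1 were called in 3 of these 8 fits each and IRF1 in 2.

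**Figure D1:**
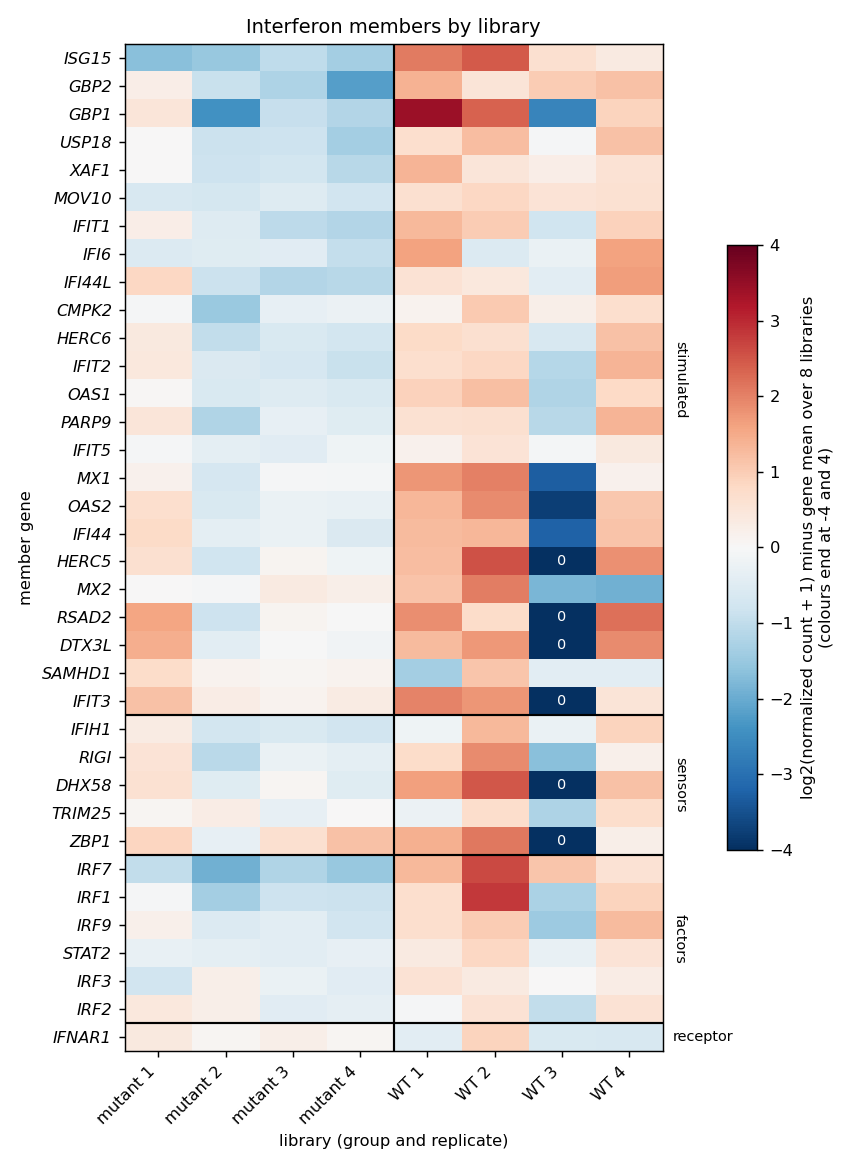
Heat map of the 36 members (rows, grouped by role) in the 4 mutant and 4 WT libraries (columns), coloured by log2(normalized count + 1) minus the gene's mean over the 8 libraries, with 0 printed where a member had no read. ISG15, IRF7 and MOV10 are blue in all 4 mutant and red in all 4 WT libraries, while WT replicate 3 is dark blue in a block of members that includes 6 with no read.

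ISG15, the ubiquitin-like modifier that interferon-treated cells attach to proteins, showed one of the widest gaps. Its normalized counts were 56.8, 63.8, 91.5 and 71.5 in mutant replicates 1 to 4 and 789, 1025, 291 and 240 in WT replicates 1 to 4. The groups did not overlap, and the WT libraries split into a high and a low pair, both above every mutant library. The means were 70.9 ± 15.0 in mutant and 586 ± 383 in WT libraries (SD, n = 4 each), a log2 difference of -2.79 ± 0.48 (SE; limma adjusted p = 0.142). Its log2 fold change in the authors' deposited table is -3.05 (adjusted p = 1.60e-06). It was called in limma without WT replicates 3 and 4 (-3.67, limma adjusted p = 0.00858), the only member that was, where 0.0858% of all genes tested were called lower.

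MOV10, an RNA helicase that restricts retroviruses and retroelements, differed by less but had the smallest standard error of all members. Mutant replicates 1 to 4 had 228, 221, 251 and 212 normalized counts, and WT replicates 1 to 4 had 555, 636, 523 and 550. The lowest WT library, replicate 3, was still 2.08 times the highest mutant library. The log2 difference was -1.31 ± 0.20 (SE; limma adjusted p = 0.142), and it stayed between -1.35 and -1.25 when any single library was left out. In the authors' deposited table its log2 fold change is -1.32 (adjusted p = 2.88e-08).

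USP18, the protease that removes ISG15 from proteins and damps receptor signalling, was also lower in mutant libraries. It had 106, 57.7, 59.3 and 40.4 normalized counts in mutant replicates 1 to 4 and 170, 251, 102 and 240 in WT replicates 1 to 4. Mutant replicate 1 lay just above WT replicate 3, and the other mutant libraries lay below all WT libraries. The log2 difference was -1.52 ± 0.44 (SE; limma adjusted p = 0.232). HERC5 and HERC6, which encode ligases of the family that attaches ISG15, had log2 differences of -0.12 ± 1.54 and -0.96 ± 0.43 (SE), and of -1.93 and -1.34 without WT replicate 3.

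The guanylate-binding proteins are interferon-induced GTPases that attack the membranes of intracellular pathogens. GBP2 had 155, 69.9, 54.3 and 27.1 normalized counts in mutant replicates 1 to 4 and 341, 185, 266 and 294 in WT replicates 1 to 4, without overlap. Its log2 difference was -2.05 ± 0.51 (SE; limma adjusted p = 0.217). GBP1 had 349, 44.8, 131 and 109 normalized counts in mutant replicates 1 to 4 and 2645, 1260, 38.8 and 462 in WT replicates 1 to 4. Here WT replicate 3 had the lowest value of all 8 libraries, from 8 reads, and WT replicate 1 was far above every other library. The log2 difference of GBP1 was -2.01 ± 1.16 (SE; limma adjusted p = 0.446), or -3.23 without WT replicate 3. GBP1 and GBP2 lie next to each other in the pig genome and belong to a family of similar copies, so reads may be split between them.

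XAF1, a pro-apoptotic gene, had 94.7, 52.4, 55.8 and 42.4 normalized counts in mutant replicates 1 to 4 and 240, 131, 111 and 140 in WT replicates 1 to 4. CMPK2, a mitochondrial nucleotide kinase gene, had 170, 61.5, 138 and 148 in mutant replicates 1 to 4 and 195, 361, 208 and 280 in WT replicates 1 to 4. Neither gene's groups overlapped, although the gap was narrow in both. Their log2 differences were -1.33 ± 0.42 and -1.06 ± 0.39 (SE; limma adjusted p = 0.258 and 0.296). XAF1 is called in the authors' deposited table (adjusted p = 0.0314) and CMPK2 is not (adjusted p = 0.128).

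**Figure D2:**
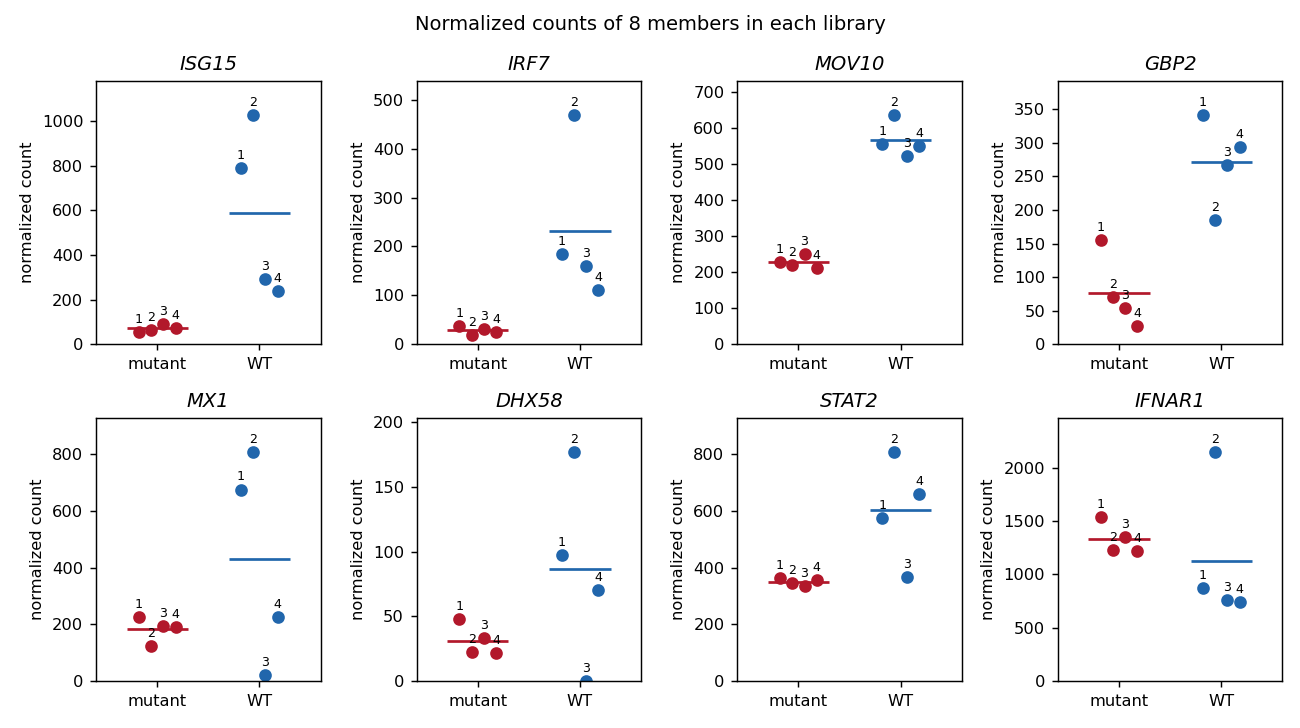
Normalized counts (linear axes from 0) of 8 members, 1 point per library numbered by its replicate, mutant left and WT right, with a bar at the group mean (n = 4 each). ISG15, IRF7, MOV10, GBP2 and STAT2 show no overlap of the groups, MX1 and DHX58 have WT replicate 3 at the bottom with 19.4 and 0, and IFNAR1 has WT replicate 2 at the top with 2147.

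The classical antiviral effectors split on WT replicate 3. MX1, a GTPase that blocks influenza viruses, had 226, 125, 193 and 191 normalized counts in mutant replicates 1 to 4 and 676, 809, 19.4 and 226 in WT replicates 1 to 4. The WT libraries thus lay on both sides of the mutant group, with a log2 difference of -0.31 ± 1.00 (SE), and of -1.47 without WT replicate 3. OAS2, whose product makes the oligoadenylates that activate RNase L, had 445, 181, 232 and 226 normalized counts in mutant replicates 1 to 4 and 702, 1038, 19.4 and 586 in WT replicates 1 to 4. Its partner OAS1 had 475, 299, 324 and 300 in mutant replicates 1 to 4 and 872, 1056, 199 and 798 in WT replicates 1 to 4. The log2 differences were -0.25 for OAS2 and -0.85 for OAS1 over all libraries, and -1.56 and -1.39 without WT replicate 3. MX2 stood out among these because WT replicate 4 was low as well. It had 335, 319, 426 and 385 normalized counts in mutant replicates 1 to 4 and 731, 1353, 92.0 and 86.1 in WT replicates 1 to 4.

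The IFIT genes encode proteins that bind foreign RNA ends and block their translation. IFIT1 had 527, 305, 212 and 194 normalized counts in mutant replicates 1 to 4 and 1082, 887, 252 and 830 in WT replicates 1 to 4, a log2 difference of -1.23 ± 0.49 (SE; limma adjusted p = 0.320). IFIT2 had a log2 difference of -0.86 and IFIT5 one of -0.53, and for both every mutant library lay below WT replicates 1, 2 and 4. IFIT3 had 166, 89.6, 80.8 and 92.0 normalized counts in mutant replicates 1 to 4 and 291, 251, 0 and 106 in WT replicates 1 to 4. Because of the 0, its log2 difference was 0.97 ± 1.58 (SE) over all libraries and -0.94 without WT replicate 3.

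IFIT3 was 1 of 6 members with no read in WT replicate 3, with RSAD2 (the antiviral radical enzyme viperin), HERC5, DTX3L, DHX58 and ZBP1. RSAD2 had 145, 26.6, 51.5 and 47.0 normalized counts in mutant replicates 1 to 4 and 176, 81.2, 0 and 222 in WT replicates 1 to 4, and its log2 difference was 0.41 ± 1.56 (SE), or -1.39 without WT replicate 3 and -0.081 after quantile normalization of all libraries. With 0 counted, the exact Poisson 95% interval reached 3.69 reads, or 17.9 normalized counts in that library. This is under the lowest value that any of the 6 had in a mutant library, 21.9. MX1 and OAS2 rested on 4 reads each in WT replicate 3, with an exact Poisson 95% interval of 5.28 to 49.6 normalized counts, again below every mutant value. These intervals cover counting error only. Such gaps were common in that library. Of 3016 genes tested whose mean over the other 7 libraries was 50 to 200 normalized counts, 16.1% had no read in WT replicate 3, against at most 1.13% in any other library, and among the 12 members in that range it was 6. For other members the same library was on the WT side, for example GBP2 with 266 and MOV10 with 523 normalized counts, from 55 and 108 reads. The part of its depth in its low values was not tested.

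IFI6, an inhibitor of apoptosis, had 320, 339, 347 and 246 normalized counts in mutant replicates 1 to 4 and 1456, 326, 392 and 1447 in WT replicates 1 to 4, so WT replicate 2 lay within the mutant group. The interferon-induced genes IFI44 and IFI44L had log2 differences of -0.24 and -1.14, and of -1.37 and -1.47 without WT replicate 3. PARP9 and DTX3L, whose products form an ADP-ribosylating ubiquitin ligase complex, had log2 differences of -0.75 and 0.42, and of -1.25 and -1.42 without WT replicate 3 (for DTX3L -0.026 after quantile normalization of all libraries). SAMHD1, which degrades deoxynucleotides and so starves retroviruses, had the opposite sign in limma with and without that library (0.56 and 0.51). It had 371, 243, 234 and 242 normalized counts in mutant replicates 1 to 4 and 85.0, 472, 165 and 164 in WT replicates 1 to 4, and the groups overlapped widely.

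**Figure D3:**
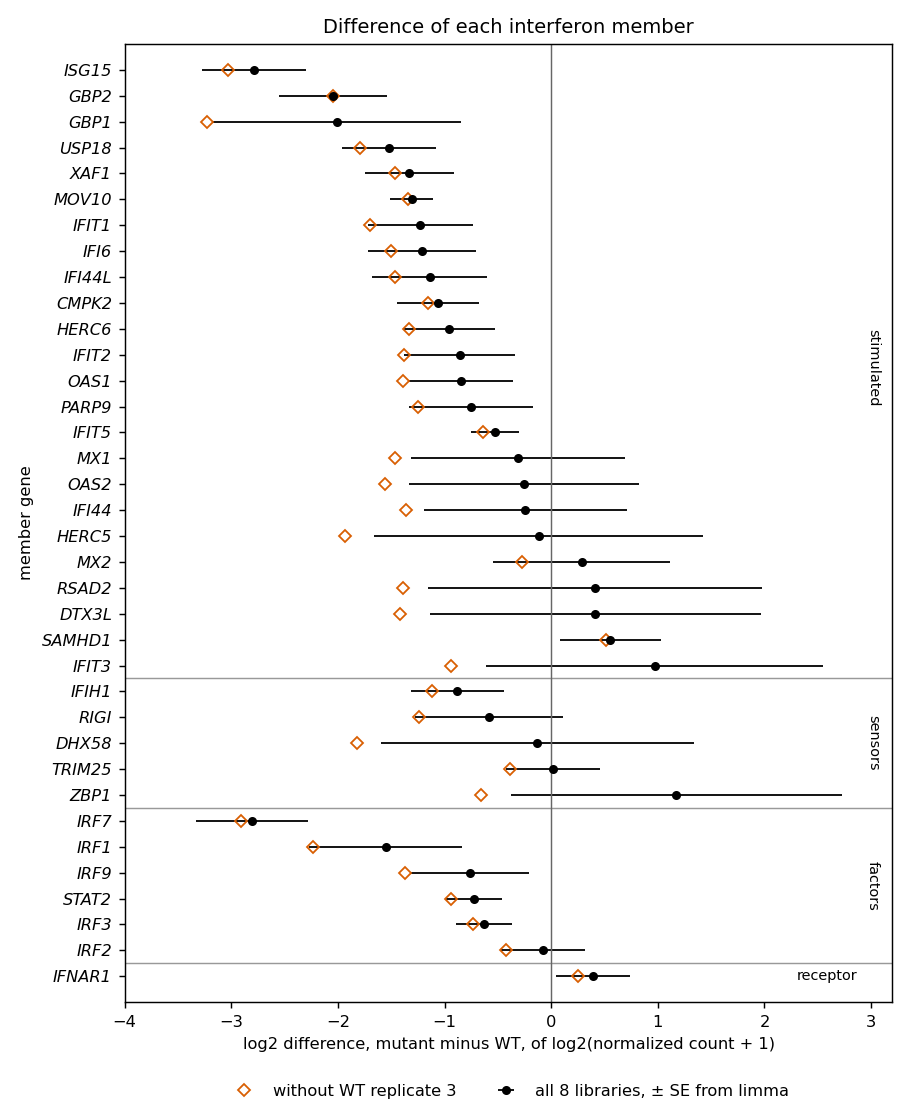
Log2 difference (mutant minus WT) of each member over all 8 libraries (filled points, bars ± SE from limma) and without WT replicate 3 (open diamonds), grouped by role. With all libraries 28 of the 36 members lie left of 0, without WT replicate 3 it is 34, and the 6 members with no read in that library shift the furthest.

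The sensors gave no clear difference with all libraries. RIGI, the gene of the sensor RIG-I, had 208, 66.8, 117 and 107 normalized counts in mutant replicates 1 to 4 and 234, 527, 43.6 and 164 in WT replicates 1 to 4. IFIH1, the gene of the sensor MDA5, had 227, 109, 118 and 106 in mutant replicates 1 to 4 and 161, 440, 150 and 337 in WT replicates 1 to 4. For IFIH1, 3 mutant libraries lay below all WT libraries and mutant replicate 1 lay among them. The log2 differences were -0.59 ± 0.69 for RIGI and -0.88 ± 0.43 for IFIH1 (SE; limma adjusted p = 0.697 and 0.394).

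DHX58, the gene of LGP2, which tunes both sensors, had 48.3, 22.0, 32.9 and 21.9 normalized counts in mutant replicates 1 to 4 and 97.7, 177, 0 and 70.4 in WT replicates 1 to 4. It was the only sensor with all mutant libraries below WT replicates 1, 2 and 4, and its log2 difference was -0.13 ± 1.46 (SE) over all libraries and -1.82 without WT replicate 3. ZBP1, a sensor of Z-form nucleic acid that can start necroptosis, had 123, 53.9, 105 and 154 in mutant replicates 1 to 4 and 180, 291, 0 and 80.1 in WT replicates 1 to 4. TRIM25, a ubiquitin ligase that acts on RIG-I, had 215, 250, 162 and 208 in mutant replicates 1 to 4 and 172, 337, 87.2 and 337 in WT replicates 1 to 4. In both genes all mutant values lay inside the WT range. The median log2 difference of the 5 sensors was -0.13, and -1.12 with WT replicate 3 left out. DESeq2 over all libraries gave -0.97 for RIGI, -0.97 for IFIH1, -1.49 for DHX58, -0.36 for ZBP1 and -0.18 for TRIM25, and called none. None of the 5 is called in the authors' deposited table.

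Among the transcription factors IRF7, the interferon-induced amplifier of the response, had the widest gap. Its normalized counts were 37.3, 19.0, 31.5 and 25.2 in mutant replicates 1 to 4 and 184, 468, 160 and 110 in WT replicates 1 to 4. The lowest WT library held 2.96 times the highest mutant library. The means were 28.2 ± 7.89 in mutant and 231 ± 161 in WT libraries (SD, n = 4 each), a log2 difference of -2.81 ± 0.53 (SE; limma adjusted p = 0.164). Its log2 fold change in the authors' deposited table is -3.04 (adjusted p = 4.92e-06).

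IRF3, which is present before infection and activated by phosphorylation, had 341, 685, 488 and 423 normalized counts in mutant replicates 1 to 4 and 865, 757, 586 and 723 in WT replicates 1 to 4. Only mutant replicate 2 overlapped the WT group, and the log2 difference was -0.63 ± 0.26 (SE; limma adjusted p = 0.328). STAT2 had 364, 346, 335 and 358 in mutant replicates 1 to 4 and 575, 808, 368 and 661 in WT replicates 1 to 4, a log2 difference of -0.73 ± 0.27 (SE; limma adjusted p = 0.296). Its groups did not overlap, but WT replicate 3 was only 1.13% above mutant replicate 1. IRF9, its partner in the interferon-activated complex, had 368, 216, 235 and 187 in mutant replicates 1 to 4 and 509, 642, 116 and 768 in WT replicates 1 to 4. The difference of IRF9 was -0.76 ± 0.55 (SE) over all libraries and -1.37 without WT replicate 3.

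IRF1, which answers to interferon gamma and inflammatory signals, had 385, 155, 222 and 217 normalized counts in mutant replicates 1 to 4 and 628, 2831, 165 and 735 in WT replicates 1 to 4. WT replicate 2 was far above the rest and WT replicate 3 inside the mutant range, with a log2 difference of -1.55 ± 0.72 (SE; limma adjusted p = 0.369). IRF2, which competes with IRF1 for its sites, had 404, 351, 218 and 232 in mutant replicates 1 to 4 and 292, 449, 150 and 451 in WT replicates 1 to 4. Its groups overlapped throughout, with a difference of -0.08 ± 0.40 (SE). All 6 factors had a negative log2 difference, with a median of -0.75.

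The receptor gene IFNAR1 had 1533, 1223, 1354 and 1217 normalized counts in mutant replicates 1 to 4 and 867, 2147, 761 and 736 in WT replicates 1 to 4. All mutant libraries lay above 3 of the WT libraries and below WT replicate 2. The log2 difference was 0.39 ± 0.34 (SE; limma adjusted p = 0.599), and -0.041 without WT replicates 3 and 4.

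Within the mutant group replicate 1 stood above the others. It had the highest value of the 4 mutant libraries for 29 of the 36 members (80.6%, against 38.3% of all genes tested). The median deviation of the 24 stimulated members from their own means was 0.33 in mutant replicate 1 and -0.69, -0.45 and -0.60 in mutant replicates 2 to 4, on the log2 scale. In WT replicates 1 to 4 it was 1.25, 1.07, -0.95 and 1.00. Mutant replicate 1 was thus between the other mutant libraries and WT replicates 1, 2 and 4, and WT replicate 3 was below all mutant libraries. The factors and sensors kept this placing of WT replicate 3, with -0.64 and -1.67. Mutant replicate 1 also had the highest mitochondrial share of the mutant group, 27.5%, and the part of that in its member levels was not tested.

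**Figure D4:**
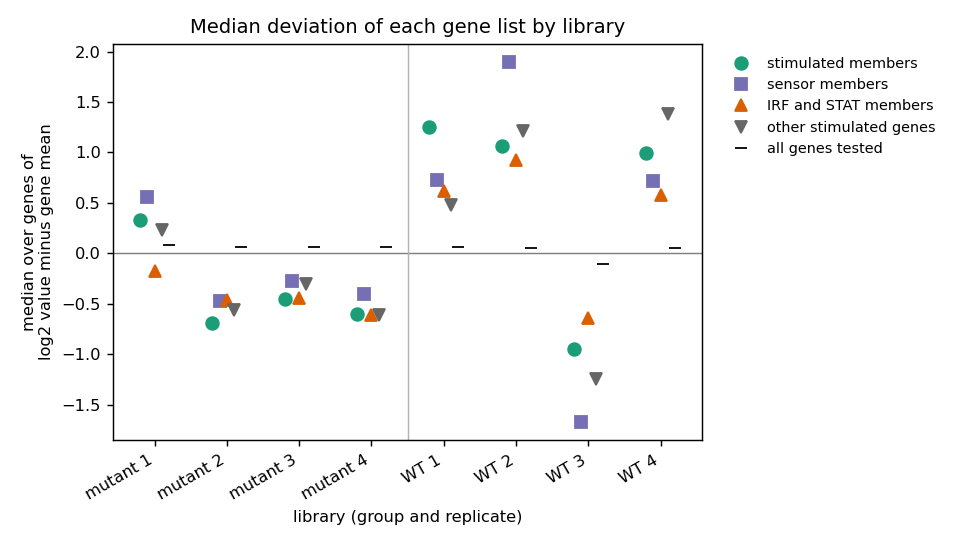
Median over the genes of each list of log2(normalized count + 1) minus the gene's own mean, by library, for 3 role groups of members, the other interferon-stimulated genes and all genes tested. The lists lie between 0.48 and 1.90 in WT replicates 1, 2 and 4 and between -1.67 and -0.64 in WT replicate 3, while all genes tested stay between -0.10 and 0.08.

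Members that are neighbours in the pig genome were compared, since the members were not picked for position. In the gene order of the RefSeq annotation of assembly Sscrofa11.1, 17 members formed 9 adjacent pairs: DTX3L with PARP9, MX2 with MX1, OAS2 with OAS1, IFIT2 with IFIT3, IFIT3 with IFIT1, RSAD2 with CMPK2, GBP2 with GBP1, IFI44 with IFI44L, and HERC5 with HERC6. Over all libraries the neighbours DTX3L and PARP9, MX2 and MX1, IFIT2 and IFIT3, IFIT3 and IFIT1, and RSAD2 and CMPK2 had differences of opposite sign, and DTX3L, IFIT3 and RSAD2 had no read in WT replicate 3. Without WT replicate 3 both genes of all 9 pairs were lower in mutant libraries, as 34 of all 36 members were. Several of these pairs are similar copies, and the counting is not stated to use strand, so reads of paralogs or overlapping neighbours could have been assigned to either gene.

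Of 81 other genes of the pathway on lists set by role, 62 had a row. Among 33 other interferon-stimulated genes 24 were lower and 9 higher in mutant ventricles, with a median of -0.46, and 31 were lower with a median of -1.35 without WT replicate 3. PARP12, an antiviral ADP-ribosyltransferase, had 219, 112, 156 and 146 normalized counts in mutant replicates 1 to 4 and 353, 342, 504 and 837 in WT replicates 1 to 4, with a log2 difference of -1.62 ± 0.35 (SE; limma adjusted p = 0.193). TRIM21, an antibody receptor inside the cell, had 80.6, 89.6, 62.9 and 52.3 in mutant replicates 1 to 4 and 130, 195, 126 and 289 in WT replicates 1 to 4. Both had groups that did not overlap. With TICAM1, below, they were the only 3 of the 62 genes with all mutant libraries lower (4.84%, against 4.27% of all 14718 genes with a row). The log2 differences were -1.57 ± 0.62 for UBA7, the enzyme that activates ISG15 for conjugation, -0.81 ± 0.32 for EIF2AK2, the kinase PKR, and -0.96 ± 0.40 for NMI (SE). The chemokine gene CXCL10 had 75.1, 77.5, 79.4 and 24.5 normalized counts in mutant replicates 1 to 4 and 246, 22385, 63.0 and 830 in WT replicates 1 to 4, so its group difference of -3.64 ± 1.48 (SE) rested on a wide WT spread. ISG20, an exonuclease gene named here outside the rule for named genes, had no read in any mutant library, and 21.5, 48.4, 0 and 6.07 normalized counts in WT replicates 1 to 4.

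Of 12 other receptors, kinases and factors 7 were lower and 5 higher (median -0.15), and of 14 other sensing genes 8 were lower and 6 higher (median -0.12). TICAM1, the adaptor of the endosomal RNA receptor TLR3, had 56.8, 31.1, 52.9 and 30.5 normalized counts in mutant replicates 1 to 4 and 114, 292, 102 and 177 in WT replicates 1 to 4, without overlap. Its log2 difference was -1.90 ± 0.48 (SE; limma adjusted p = 0.217). The myeloid factor gene IRF8 and the feedback inhibitor gene SOCS3 had differences of -1.97 ± 0.80 and -2.23 ± 0.96 (SE), and SOCS3 had 5388 normalized counts in WT replicate 2 against 111 in WT replicate 3. NLRC5, the activator of class I antigen presentation genes, had a difference of -1.55 ± 0.64 (SE). PTPN6, TYK2, IFNGR2, IRF5, TBK1, MYD88, TLR3 and TREX1, the other genes that the rule names, had differences of -0.77 to 1.93, with limma adjusted p of 0.446 to 0.765, and PTPN6, TLR3 and TREX1 had no read in WT replicate 3. The authors' deposited table calls 7 of the 62 lower, namely IRF8, SOCS3, TICAM1, PARP12, TRIM21, ISG20 and CXCL11, and none higher. That is 11.3% of the 62 lower, against 2.80% of all 14718 genes with a row lower and 1.14% higher. No gene of the 62 passed limma.

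Interferon genes themselves were barely detected. IFNA1 had 6, 4, 3 and 2 reads in mutant replicates 1 to 4 and 0 in each WT library, and it belongs to a family of near-identical copies. The mutant libraries thus held 1.32 to 3.67 normalized counts, all above the 0 of the WT libraries. There a count of 0 leaves room for levels up to about 2.38 to 14.5, depending on the library (a floor of 3 reads). The gene did not pass the filter on low values and was not tested. IFNE had 2 reads in WT replicate 4 and IFNK 2 reads in mutant replicate 2, with none elsewhere.

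Markers of other cell types went in both directions. In mutant libraries, lower and higher genes numbered 3 and 1 among neutrophil markers (median log2 difference -1.24), 3 and 0 among erythroid markers (-0.998), 3 and 0 among atrial markers (-0.65), 4 and 1 among B and plasma cell markers (-0.10) and 3 and 2 among smooth muscle and pericyte markers (-0.90). They numbered 2 and 6 among macrophage and monocyte markers (0.42), 2 and 5 among T and NK markers (1.09), 0 and 4 among dendritic markers (0.92), 1 and 5 among endothelial markers (0.37) and 1 and 5 among fibroblast markers (0.86). The summed level of 8 macrophage and monocyte markers was 1140 to 3628 normalized counts in mutant and 635 to 4728 in WT libraries. The 4 neutrophil markers with a row summed to 15.9 to 324 in mutant libraries and to 110, 3968, 150 and 93.4 in WT replicates 1 to 4. On the log2 scale, the median deviation of all members from their own means was 0.84, 1.07, -1.05 and 0.84 in WT replicates 1 to 4. The 7 T and NK markers summed to 52.3 to 112 in mutant and 38.1 to 135 in WT libraries, and the 5 B and plasma cell markers to 12.6 to 102 in mutant and 4.84 to 93.4 in WT libraries. MS4A1 had no read in 4 libraries and GZMB none in 5. The 4 dendritic markers summed to 339 to 568 in mutant and 58.1 to 329 in WT libraries, which rested on TCF4, a gene of many cell types. Endothelial, fibroblast, and smooth muscle and pericyte sums overlapped between groups (15011 to 23694, 26328 to 72010 and 10308 to 19266 in mutant libraries, and 7049 to 36844, 6560 to 115096 and 7945 to 33064 in WT libraries). Erythroid sums were 2484 to 2950 in mutant libraries and 17243, 31315, 28534 and 49.7 in WT replicates 1 to 4, and atrial sums were 627 to 6914 in mutant and 1771 to 9531 in WT libraries. The part of cell makeup in the member differences was not tested.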

How the data were processed

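RNA of 8 left ventricles, 4 mutant and 4 WT, was analysed from 1 deposited table. Per the labels' protocols, TRIzol RNA was selected for poly(A) and made into NEBNext Ultra libraries. Per the file headers and the values, the authors deposited a signal per gene and library, a read count divided by a size factor, with a mean signal, and their log2 fold change, standard error (score), test statistic (score), raw p-value and adjusted p-value for mutant over WT. Per the submitters' processing notes DESeq2 was used, and the build named is GRCh38, a human one. The annotation is not given in the sources used here, nor are aligner and counter. No coordinates are printed, and sequences were not used here. Neighbouring genes come from the gene order of RefSeq's Sscrofa11.1 annotation, matched by symbol.

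All values were whole multiples of 1 read (100.0% within 1e-06 reads), so reads were recovered by division, 15.9 to 22.4 M per library. Of 14720 rows 2 name an annotation source, hold 0.392% to 0.853% of reads, and were left out. Of 14718 gene rows 14504 matched a pig symbol, as did all 36 members. Genes with at least 10 normalized counts in at least 4 libraries (11660) were tested on log2(normalized count + 1). This scale understates changes of low genes, and a library with no read can turn a sign, as for IFIT3 (0.97, against -0.61 in DESeq2). The test was limma 3.58.1 (trended, robust prior, R 4.3.3), with Benjamini-Hochberg adjusted p under 0.05 called. DESeq2 1.42.0 and edgeR 4.0.16 were run on recovered reads. The main limma fit, DESeq2 and edgeR were tested on simulated data, and the alternative settings and fits with libraries left out were not. Medians of lists take every member with a row. Members with the 6 smallest p of each role, and members called by DESeq2 or in the authors' table, are given in every library, and up to 6 genes of each pathway list are named. Members and lists were chosen with earlier results of these data known. The labels give no batch, and replicate numbers only name libraries. Nothing says how the pigs were raised, so p-values cover only the spread among these libraries, which may be technical. 1 gene of the pathway lists is not reported here.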

Additional observations from a re-analysis of the deposited data

Results flagged for a closer look

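In 13 of 108 groups of 4 libraries (54 genes, 36 members and 18 other pathway genes) a library lay far from the other 3 on the log2 scale. The cutoff flags about 5% of independent groups by chance. These groups share their libraries, and the flagged share over all genes was not computed, so 5% is no measure of an excess here. WT replicate 3 was the low library in 7 of the 13 groups, with 199 normalized counts of OAS1, 19.4 of OAS2, 14.5 of IFI44, and 0 of HERC5, DTX3L, PTPN6 and TREX1. It was the lowest WT library for 35.9% of all genes tested. Mutant replicate 1 was the high library in 4, with 637 normalized counts of IFI44L, 371 of SAMHD1, 227 of IFIH1 and 153 of UBA7. IFNAR1 was high in WT replicate 2, at 2147 normalized counts, and CXCL10 was low in mutant replicate 4, at 24.5.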

How the results depend on the processing

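Of the 36 members, 22 kept the sign of their log2 difference under every alternative that could be fitted, and 15 of 18 other named pathway genes did. In limma 6 members turned sign without WT replicate 1, 6 without WT replicate 2, 6 without WT replicate 3 and 6 without WT replicate 4, and 1 to 3 without any 1 mutant library. Limma's 0 calls over the whole table became 582 with DESeq2, 92 with array weights, 12 without WT replicates 3 and 4, and 698 with DESeq2 without them, and the cause was not tested. With any single library left out they were 0 to 1027 over both tools. Member calls were 8 with DESeq2, 5 with array weights (0.532% of all genes tested), 1 without WT replicates 3 and 4, 18 with DESeq2 without them, and 0 to 20 with a library left out. Calls among the 62 other pathway genes were 7 with DESeq2 (3.24% of its genes were lower), 1 with array weights (0.532%), 16 with DESeq2 without WT replicates 3 and 4 (3.09%), and 0 to 17 with a library left out. The sensor median was -1.24 with array weights and -1.31 to 0.26 with a library left out, the receptor's difference -0.20 with DESeq2 without WT replicates 3 and 4, and the median of the other pathway genes -1.09 to -0.040 with a library left out. Log2 differences that turned are given in the order DESeq2, edgeR, array weights, limma without WT replicates 3 and 4, and DESeq2 without them: MX2 -0.63, -0.63, -0.70, -1.45 and -1.53; IFIT3 -0.61, -0.62, -0.91, -1.39 and -1.36; RSAD2 -0.84, -0.85, -0.90, -1.09 and -0.94; DTX3L -0.85, -0.86, -1.15, -1.29 and -1.13; ZBP1 -0.36, -0.37, -0.30, -1.16 and -1.13; TRIM25 -0.18, -0.17, -0.36, -0.22 and -0.31; TREX1 -0.085, -0.064, -0.55, -0.52 and -0.45. TLR3 gave -0.075, -0.087 and, with DESeq2 without WT replicates 3 and 4, -0.48. Without those libraries, limma and DESeq2 gave -0.041 and -0.20 for IFNAR1 and 0.29 and 0.17 for IRF5, and DESeq2 gave -0.060 for SAMHD1. Quantile normalization gave -0.081 for RSAD2, -0.026 for DTX3L and -0.065 for TRIM25, a pseudocount of 5 gave -0.087 for RSAD2 and -0.091 for DTX3L, and a pseudocount of 0.5 gave 0.12 for HERC5 and 0.10 for DHX58. With 1 library left out, limma and DESeq2 together ranged from -0.995 to 1.01 for MX2, -1.02 to 1.79 for IFIT3, -1.54 to 1.21 for RSAD2, -1.97 to 0.71 for HERC5, -1.47 to 1.11 for DTX3L, -1.88 to 0.68 for DHX58, -0.76 to 2.07 for ZBP1, -0.43 to 0.26 for TRIM25, -0.45 to 2.31 for TLR3, -0.51 to 1.27 for TREX1, -1.64 to 0.30 for MX1, -1.56 to 0.33 for OAS2, -1.37 to 0.16 for IFI44 and -0.42 to 0.11 for IRF2. TMM rescaling and size factors without mitochondrial genes turned no sign. A filter on the mean, no filter and a plain prior leave the log2 difference itself unchanged, so they could not turn a sign. The DESeq2 fits with libraries left out were chosen after seeing the data. No paired analysis was possible because the replicate numbers only follow the order of the samples.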
